A study of Homo sapiens with 8 samples.

Results

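The miR-378 family is a group of short regulatory RNAs named after miR-378a, and its members were measured here in INA-6 cells, an established human multiple myeloma (MM) line that grows in the presence of interleukin 6. The members were chosen by name, as the rows of each array listed under hsa-miR-378a-3p, hsa-miR-378a-5p, hsa-miR-378b, hsa-miR-378c, hsa-miR-378d, hsa-miR-378e, hsa-miR-378f, hsa-miR-378g, hsa-miR-378h or hsa-miR-378i, where the prefix hsa stands for the human form and is left out below. They were 10 of the 2549 human miRNAs on the array, and they held 21 of the 5893 probes for human miRNAs and 200 of the 53144 spots of an array. The study treated the cells with UNC1999, a small molecule that inhibits the histone methyltransferase EZH2, and asked which mature miRNAs changed. RNA of each culture was hybridized to a single-colour miRNA array. The 4 UNC1999 arrays carried RNA from INA-6 cells kept for 120 h in 1 μM UNC1999, and the 4 DMSO arrays carried RNA from INA-6 cells kept for the same time with DMSO, the solvent of the inhibitor, with the medium and reagents refreshed at 72 h. The sample titles and the study's methods give DMSO as the control, whereas the treatment text of the labels names an inactive compound, UNC2400, and the control arrays were taken as DMSO arrays. All samples come from the same cell line, so the spread between arrays carries no difference between patients, and the study describes the replicates of its array heatmap as independent biological experiments.

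A mature miRNA guides the silencing machinery to messenger RNAs mainly through its seed, the bases near its 5′ end, and miRNAs with the same seed share many predicted targets. MiR-378a lies within the gene for PGC-1β (PPARGC1B), a coactivator of mitochondrial and oxidative metabolism, and both arms of its hairpin have been linked to energy metabolism, muscle differentiation and tumour cell survival. The 3p arm gives the family its common sequence, whereas the 5p arm has a seed of its own.

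Mature sequences are shown to make clear how little separates the members that an array has to tell apart. RefSeq (GRCh38.p14) held a mature entry for 8 of the 10 members, and miR-378d and miR-378e are named only. Each line is written 5′ to 3′, and the capitals mark the seed, bases 2 to 8. The pair detected on every array comes first.
miR-378a-3p: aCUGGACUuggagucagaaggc
miR-378i: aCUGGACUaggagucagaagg
The other arm of the miR-378a hairpin, with an unrelated seed, follows.
miR-378a-5p: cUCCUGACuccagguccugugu
Next come members that were not detected on any array, one with a longer 3′ end, one with a changed seed and one with changes in the middle and near the 3′ end.
miR-378c: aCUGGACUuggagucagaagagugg
miR-378g: aCUGGGCUuggagucagaag
miR-378h: aCUGGACUuggugucagaugg
The last is a relative outside the family name that shares the seed.
miR-422a: aCUGGACUuagggucagaaggc

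Counted from 1 at the 5′ end of miR-378a-3p, with its base first, miR-378i differed from it by U9A alone and ended 1 base earlier, at 21 bases against 22. MiR-378b differed by U14G, miR-378f by U14C, miR-378g by A6G within the seed, and miR-378h by A12U and A19U. MiR-378c differed by G21A and C22G and ran on for 3 more bases, to 25. The relatives miR-422a and miR-378j differed by G10A and A12G, and by C7U and U14C, respectively. The seed CUGGACU was held by 7 of the 2370 mature human miRNAs of RefSeq (0.295%), which were 6 members and miR-422a. Whether a member also bound the probes of another was not tested, because probe sequences were not used here.

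The genes of the members lie far apart. On GRCh38.p14, miR-378a-3p maps to chr5:149732867-149732888 and miR-378a-5p to chr5:149732829-149732850, both on the plus strand within the span of PPARGC1B. MiR-378i maps to chr22:41923271-41923291 on the minus strand, within the span of TNFRSF13C, which encodes the BAFF receptor of B cells. MiR-378b maps to chr3:10330262-10330280 (plus) within ATP2B2, a plasma membrane calcium pump, and miR-378h to chr5:154829466-154829486 (plus) within FAXDC2. MiR-378g maps to chr1:94745880-94745899 (minus) within the long non-coding RNA gene SLC44A3-AS1, while miR-378c at chr10:130962634-130962658 (minus) and miR-378f at chr1:23929121-23929140 (plus) lie within no listed gene. The array files name another build, hg19, so members were matched by name and never by position. Exons and introns were not assigned, and the strand of a spanning gene was not compared with that of the member. A member can therefore lie on the strand opposite to the gene named here.

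Signal above background was restricted to few members. MiR-378a-3p and miR-378i were called detected by the scanner software on all 8 arrays, and miR-378a-5p on 1 array, DMSO replicate 1. MiR-378b, miR-378c, miR-378d, miR-378e, miR-378f, miR-378g and miR-378h, 7 members, were detected on no array. For comparison, 1980 of the 2549 human miRNAs (77.7%) were detected on none and 346 (13.6%) on all 8. The relatives miR-378j and miR-422a were also detected on no array. An undetected member has only an upper bound in these cells, set by the background of the array, and is not shown to be absent.

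**Figure D1:**
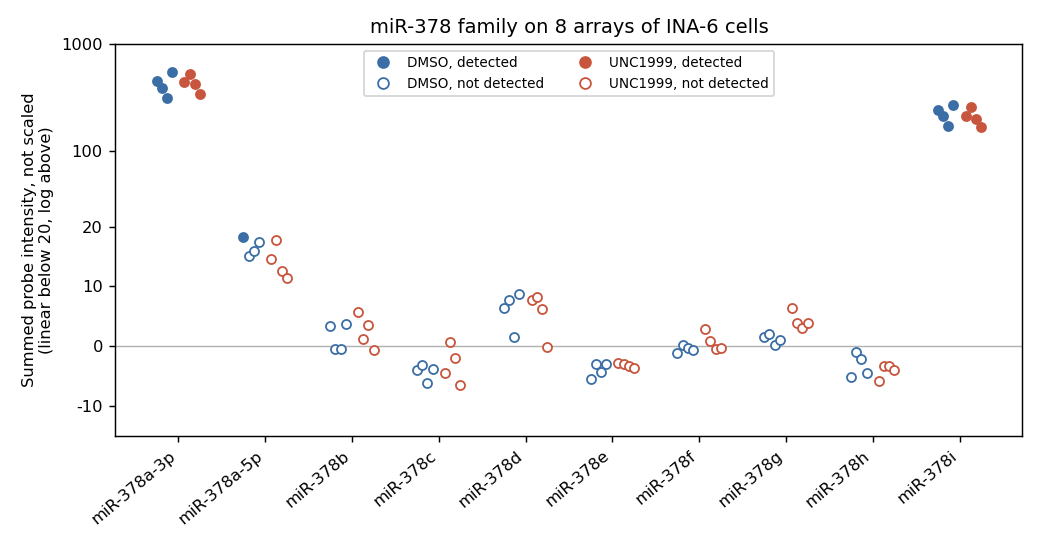
Summed probe intensity of each family member on each array, not scaled between arrays (vertical axis, arbitrary units, linear below 20 and logarithmic above), with DMSO arrays in blue and UNC1999 arrays in red, ordered by replicate from left to right within a group; filled points were called detected. MiR-378a-3p (315 to 551) and miR-378i (170 to 273) stand apart, miR-378a-5p lies between 11.4 and 18.3, and the other 7 members lie between -6.46 and 8.66.

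The 7 undetected members had 14 probes, whose mean intensities lay between -5.71 and 11.0 on the 8 arrays. Of their 1120 spots, 7 (0.625%) were marked as well above background. Among the negative control spots, between 0.1% and 1.2% carried that mark on an array, and the 95th percentile of those spots lay between 7.49 and 9.62. Their mean was 289 on DMSO replicate 3, 81.0 on UNC1999 replicate 1 and 16.1 on UNC1999 replicate 2. It was 1.41 to 3.64 on the other arrays. Spots marked as outliers were kept in these means, unlike in the probe means. On DMSO replicate 3 the 95th percentile was 7.79 and 0.4% of control spots were marked as well above background. The mean of 289 therefore rests on the highest spots and is not the general background of that array. Among the 14 probes of the undetected members, the highest mean, 11.0, belonged to a probe of miR-378d. That probe had a mean of 3.65 to 11.0 over the arrays (median 8.44) and 1 of 80 spots marked as well above background. No other probe of these members had a mean above 5.22. The control percentile is one of single spots and is no bound for the mean of several spots.

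MiR-378a-5p, the partner arm of miR-378a-3p in the same hairpin, was close to the limit of detection. In replicates 1 to 4 of the DMSO group, its summed intensity was 18.3, 15.0, 15.9 and 17.4. It was 14.6, 17.8, 12.5 and 11.4 on the UNC1999 arrays. These unscaled groups overlapped. After the scaling described below, the log2 intensity was 4.32, 4.48, 4.80 and 4.01 in the DMSO group and 3.46, 3.70, 3.17 and 3.46 in the UNC1999 group, so that the groups did not overlap, with UNC1999 replicate 3 at the floor, a scaled intensity of 8.98 to which lower values were raised. Such a separation was seen in 298 of 456 tested miRNAs (65.4%) in one direction or the other. MiR-378a-5p is not among these 456, and the share among miRNAs as close to the background is not given. Only 4 of the 160 spots of miR-378a-5p were marked as well above background. It did not pass the filter for testing, which asked for detection on all 4 arrays of at least 1 group.

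Before the results on treatment, a difference between the arrays has to be stated. Arrays were compared after division by the 75th percentile of the 346 miRNAs detected on all arrays, and that percentile averaged 419 ± 119 (SD, n = 4) for DMSO against 664 ± 88.4 (SD, n = 4) for UNC1999 (two-sided exact permutation test, p = 0.0571). DMSO replicates 2 and 3 stood apart, with 369 and 370 detected miRNAs against 474 to 500 on the other 6 arrays. The labelling spike-ins, control RNAs added to each labelling reaction, gave 2795 ± 296 (SD, n = 4) for DMSO against 2571 ± 182 (SD, n = 4) for UNC1999 (two-sided exact permutation test, p = 0.229). Within each group the arrays resembled each other in pairs, DMSO replicates 1 and 4, DMSO replicates 2 and 3, UNC1999 replicates 1 and 3, and UNC1999 replicates 2 and 4. The values do not settle whether alike arrays held separate samples, and p-values measure only the spread between these arrays. The markers of blood cells miR-142-3p, miR-142-5p and miR-150-5p were detected on all 8 arrays and miR-155-5p on 2. The markers of erythroid cells, liver, muscle, epithelium, stroma and endothelium were detected on none, whereas the myeloid marker miR-223-3p and the nervous tissue marker miR-9-5p were detected on all 8 and miR-124-3p on none. On the scaled arrays miR-223-3p changed by 1.18 and miR-9-5p by -0.88 (log2), and the part of other cell types in the results below was not tested.

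After scaling, both detected members were lower in UNC1999-treated cells than in DMSO-treated cells, miR-378a-3p by 1.57-fold and miR-378i by 1.73-fold, but without scaling, or with scaling to the spike-ins, neither passed the test. Both were called, that is, their adjusted p did not exceed 0.05 and their fold change reached 1.2. Across the array, 322 of 456 tested miRNAs (70.6%) were called in either direction and 158 (34.6%) were called lower, so that a call by itself was common. The decrease is one relative to what else was measured on an array, and the following values show both scales.

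MiR-378a-3p, the arm that carries the common sequence of the family, had an unscaled summed intensity of 452, 387, 315 and 551 in replicates 1 to 4 of the DMSO group. On the UNC1999 arrays it was 445, 528, 428 and 340. Without scaling, the groups overlapped along their whole length, with the highest and the lowest value both among the DMSO arrays (exact permutation test, two-sided, p = 0.83). After scaling, the log2 intensity was 8.95, 9.17, 9.11 and 9.0 on the DMSO arrays and 8.39, 8.59, 8.25 and 8.36 on the UNC1999 arrays. Every UNC1999 array then lay below every DMSO array, as it did in 298 of 456 tested miRNAs (65.4%) in one direction or the other. The group means were 9.05 ± 0.10 and 8.40 ± 0.14 (SD, n = 4 each). The log2 fold change was -0.65 (SE 0.11, 95% interval -0.89 to -0.42), with an adjusted p of 0.000594 by limma's moderated test with Benjamini-Hochberg adjustment. The exact permutation test gave p = 0.0286, the smallest value that 4 against 4 arrays allow.

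MiR-378i is encoded on another chromosome, but it has the same seed and the same bases 10 to 21 as miR-378a-3p. The pair may share probe signal, which was not tested. In replicates 1 to 4 of the DMSO group, the unscaled summed intensity of miR-378i was 245, 212, 173 and 273. It was 213, 262, 200 and 170 on the UNC1999 arrays. The unscaled groups overlapped (exact permutation test, two-sided, p = 0.629). After scaling, the log2 intensity was 8.06, 8.30, 8.24 and 7.98 on the DMSO arrays and 7.33, 7.58, 7.15 and 7.36 on the UNC1999 arrays. Again no UNC1999 array reached the lowest DMSO array, and the group means were 8.15 ± 0.15 and 7.36 ± 0.18 (SD, n = 4 each). The log2 fold change was -0.79 (SE 0.12, 95% interval -1.06 to -0.52), with an adjusted p of 0.000486 in the limma fit and the same exact permutation p of 0.0286.

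**Figure D2:**
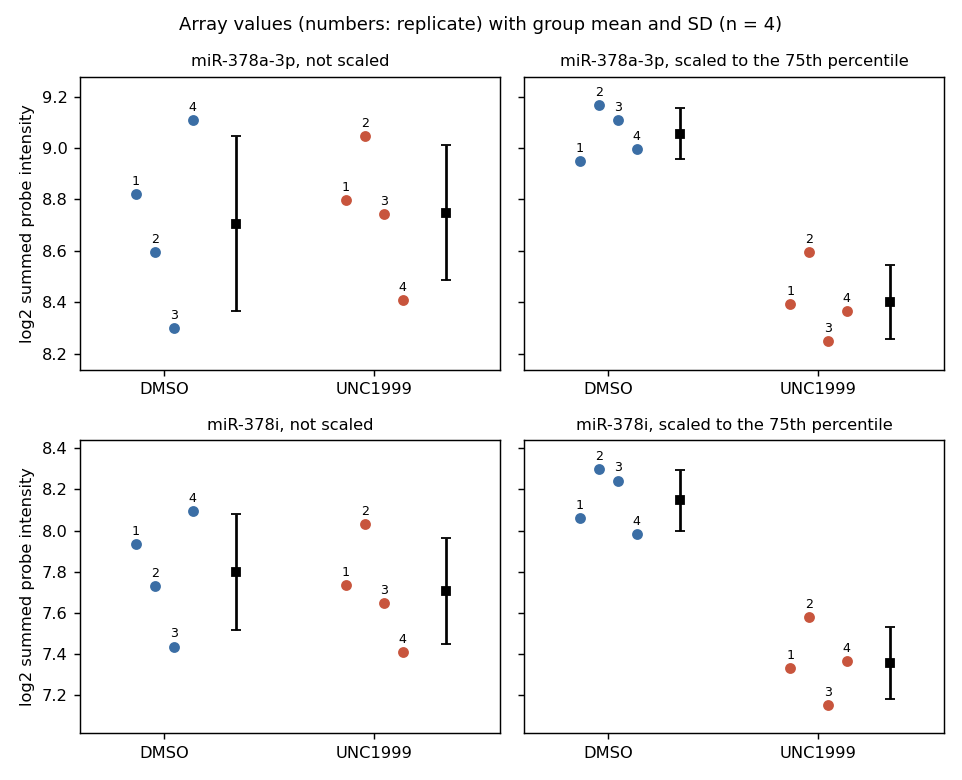
Log2 summed probe intensity of miR-378a-3p (top) and miR-378i (bottom) on the DMSO (blue) and UNC1999 (red) arrays before scaling (left) and after division by the 75th percentile (right), with the replicate number at each point and squares with bars for the group mean and SD (n = 4). The groups overlap on the left and separate on the right, where miR-378a-3p lies at 8.95 to 9.17 against 8.25 to 8.59 and miR-378i at 7.98 to 8.30 against 7.15 to 7.58.

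For both members, UNC1999 replicate 2 was the highest of its group before and after scaling. In the DMSO group, the replicate that was highest before scaling was not the highest afterwards. Among the DMSO arrays, replicate 4 had the strongest unscaled signal of both members and replicate 3 the weakest. After scaling, replicates 2 and 3, the arrays with few detected miRNAs, were the highest. Leaving out both of them, an alternative added after the values had been seen, the log2 fold change was -0.55 for miR-378a-3p (adjusted p = 0.00370, limma) and -0.64 for miR-378i (adjusted p = 0.00221, limma). Both members also stayed called when any single array was left out, with log2 fold changes from -0.72 to -0.61 for miR-378a-3p and from -0.86 to -0.73 for miR-378i.

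The arrays lay on 1 slide, in rows that were not balanced between the groups. Row 1 held 3 DMSO arrays and 1 UNC1999 array, and row 2 held 1 DMSO array and 3 UNC1999 arrays. The log2 fold change of miR-378a-3p was -0.67 within row 1 and -0.70 within row 2, and that of miR-378i was -0.75 and -0.89, respectively. Each of these differences has a lone array on 1 side and was not tested.

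Among the 456 tested miRNAs ranked from the strongest decrease, miR-378i was at rank 47 and miR-378a-3p at rank 77. The median log2 fold change was -0.72 over the 2 members and 0.01 over all tested miRNAs.

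**Figure D3:**
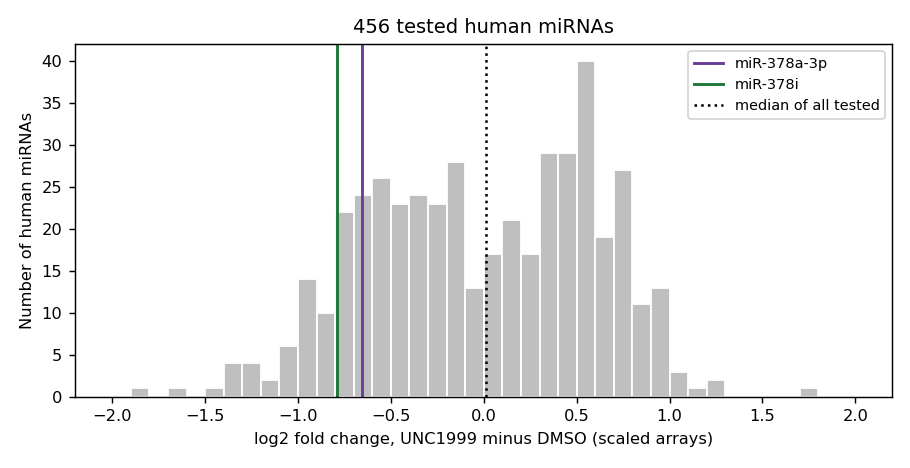
Histogram of the log2 fold changes (UNC1999 minus DMSO, arrays scaled to the 75th percentile) of the 456 tested human miRNAs, with the number of miRNAs on the vertical axis and lines for miR-378i (-0.79), miR-378a-3p (-0.65) and the median of all (0.01). Both members lie on the lower side of a wide distribution, without being at its edge. When arrays are not scaled or are scaled to the spike-ins, both member lines move to about 0. The median of all then moves as well, to 0.67 and 0.78, respectively.

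The probes of each member were read separately, since a miRNA on this array is represented by several probes that are each spotted several times. MiR-378a-3p had 3 probes, with mean unscaled intensities of 57.0 to 98.4, 75.7 to 133 and 183 to 320 over the 8 arrays. MiR-378i had 2 probes, with 42.4 to 64.5 and 127 to 208. All 160 spots of each miRNA were marked as well above background. Within an array, the coefficient of variation between the spots of a probe was at most 10.5% for the probes of miR-378a-3p and at most 16% for those of miR-378i.

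On the scaled arrays, the log2 fold changes of the miR-378a-3p probes were -0.64 (SE 0.07), -0.66 (SE 0.07) and -0.66 (SE 0.10). Those of the miR-378i probes were -0.78 (SE 0.12) and -0.79 (SE 0.11). All 5 probes were called lower, as were 224 of 982 tested probes (22.8%), and their adjusted p-values in the limma fit over probes ran from 0.00112 to 0.00295. In either direction, 43.2% of all tested probes were called. In each of the 5 family probes, every UNC1999 array was below every DMSO array. Groups did not overlap in 298 of 456 tested miRNAs (65.4%), in either direction, and the share over all probes was not computed. Probes of 1 miRNA bind the same RNA and are not independent replicates. Their directions depended on the scaling as those of the miRNAs did, and unscaled the probes of miR-378a-3p were at 0.06, 0.04 and 0.04 and those of miR-378i at -0.08 and -0.10.

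**Figure D4:**
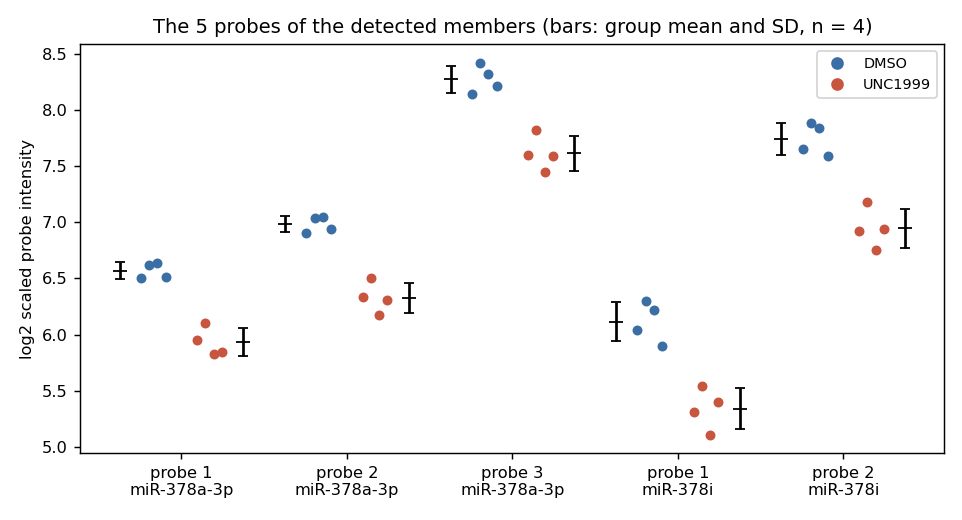
Log2 intensity, scaled to the 75th percentile, of each of the 5 probes of the detected members on the DMSO (blue) and UNC1999 (red) arrays, with bars for the group mean and SD (n = 4). Every probe is lower in the UNC1999 group on this scale, with log2 fold changes from -0.79 to -0.64; unscaled, the probes of miR-378a-3p were at 0.04 to 0.06 and those of miR-378i at -0.10 and -0.08, and none was called.

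A comparison of the members with each other does not depend on scaling by 1 factor per array, which cancels in a ratio within the array. The log2 ratio of miR-378i to miR-378a-3p was -0.89, -0.87, -0.86 and -1.01 in replicates 1 to 4 of the DMSO group, and it was -1.06, -1.01, -1.10 and -1.0 in those of the UNC1999 group. DMSO replicate 4 lay among the UNC1999 arrays, so the groups overlapped. The ratio changed by -0.14 (SE 0.04) from -0.91 ± 0.07 to -1.04 ± 0.04 (SD, n = 4 each), and this difference did not pass the exact permutation test (two-sided, p = 0.0857, the only pair compared). Without DMSO replicate 4 the change was -0.17 and the groups no longer overlapped (exact permutation p = 0.0286), so that array decides the call. With normexp the change was -0.080 (exact permutation p = 0.0857), and with quantile normalization it was -0.19 (exact permutation p = 0.0571). Because probes differ in their response, the ratio does not say which member was more abundant.

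How far the direction depends on the reference was followed over several scalings. With the percentile taken over every human miRNA of the array, the log2 fold change was -0.43 for miR-378a-3p (adjusted p = 0.0155, limma) and -0.57 for miR-378i (adjusted p = 0.00348, limma). With quantile normalization it was -0.68 and -0.87, and with normexp background correction -0.45 and -0.53, and both members were called in each. In the table of normalized values deposited by the authors, the log2 differences computed here were -0.71 and -0.85, and both were called.

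Without scaling, miR-378a-3p changed by 0.04 (SE 0.27, adjusted p = 0.914, limma) and miR-378i by -0.09 (SE 0.26, adjusted p = 0.800, limma). Scaled to the spike-ins, the log2 intensity of miR-378a-3p was 8.60, 8.54, 8.45 and 8.99 in replicates 1 to 4 of the DMSO group and 8.79, 9.01, 8.82 and 8.61 in those of the UNC1999 group. That of miR-378i was 7.72, 7.68, 7.59 and 7.98 against 7.73, 8.0, 7.72 and 7.61. Both pairs of groups overlapped (two-sided exact permutation tests, p = 0.286 and p = 0.686). On this scale they changed by 0.16 (SE 0.19, adjusted p = 0.477, limma) and 0.02 (SE 0.18, adjusted p = 0.913, limma). Without scaling and with the spike-ins, the median log2 fold change over the 456 tested miRNAs was itself shifted upwards, to 0.67 and 0.78. A single factor per array moves all miRNAs of that array together, so that the distance of the members to the median is close to fixed under the percentile scalings, without scaling and with the spike-ins. That distance was -0.67 for miR-378a-3p and -0.80 for miR-378i on the main scale. Other settings changed that distance. Among them, quantile normalization gave -0.79 and -0.98, normexp -0.16 and -0.24, and the deposited normalized values -0.89 and -1.03. Leaving out DMSO replicates 2 and 3 gave -0.44 and -0.53, and testing only miRNAs detected on all 8 arrays gave -0.52 and -0.65.

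**Figure D5:**
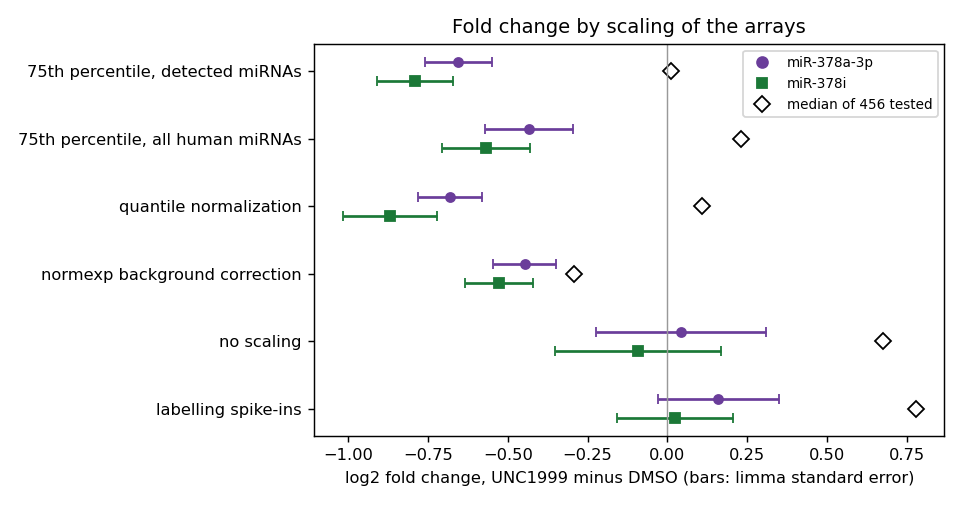
Log2 fold change (UNC1999 minus DMSO, horizontal axis) of miR-378a-3p (circles) and miR-378i (squares) under 6 ways of preparing the arrays, with bars for the limma standard error and diamonds for the median of the 456 tested miRNAs. Both members are below 0 under the first 4 settings and near 0 without scaling (0.04 and -0.09) or with the labelling spike-ins (0.16 and 0.02).

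Other miRNAs followed the same course over the 8 arrays. Likeness was measured as the mean absolute difference between centred log2 profiles, scaled to the 75th percentile, over the 8 arrays, among the 345 other miRNAs detected on all of them. Closest to miR-378a-3p were miR-324-5p (0.030), miR-331-3p (0.039) and miR-138-5p (0.049), and miR-378i was in 10th place (0.077), against a median of 0.305 over all. Closest to miR-378i were miR-92a-3p (0.058), miR-324-5p (0.065) and miR-378a-3p itself (0.077), against a median of 0.349. These neighbours had log2 fold changes of -0.67 for miR-324-5p, -0.61 for miR-331-3p, -0.60 for miR-138-5p and -0.70 for miR-92a-3p, and unscaled all 4 were between -0.00028 and 0.093. Each is encoded outside the family and has another seed.

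Other miRNAs that lie in introns of metabolic genes were examined beside miR-378a. The list held miR-33a and miR-33b, from the genes of the sterol regulators SREBF2 and SREBF1, and miR-103a and miR-107, from pantothenate kinase genes, 6 mature forms in all. Of these, 3 were detected often enough to be tested, and all 3 were called lower on the scaled arrays, miR-103a-3p by -0.74, miR-107 by -0.60 and miR-33a-5p by -0.81, where 34.6% of all tested miRNAs were called lower. The adjusted p of miR-33a-5p was 0.0180 (limma), and its groups overlapped. With the percentile taken over every human miRNA of the array, miR-33a-5p (adjusted p = 0.103, limma) and miR-107 (adjusted p = 0.0552, limma) were no longer called, and with quantile normalization miR-33a-5p was not (adjusted p = 0.0836, limma). Unscaled, the log2 fold changes of miR-103a-3p, miR-107 and miR-33a-5p were -0.05, 0.10 and -0.11, so their decrease, too, was relative to the other miRNAs. MiR-103a-3p and miR-107 are near-identical in sequence and may share probe signal. The muscle miRNAs miR-1, miR-133, miR-206, miR-208 and miR-499, in whose tissue miR-378 is abundant, were detected on no array (0 of 11 mature forms).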

How the data were processed

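The 8 samples were run on SurePrint G3 human miRNA arrays (miRBase 21). The authors deposited the scanner output, made with Agilent Feature Extraction 10.7.3.1 per the file headers, with the background-subtracted intensity of every spot, not normalized from array to array, along with marks for detection, outliers and signal well above background. They also deposited a table of normalized log2 values. Their methods name GeneSpring 13 and a moderated test with a fold change of 1.2. Here, spots without outlier marks were averaged per probe and summed per miRNA, and scaling set the 75th percentile of the 346 miRNAs detected on all arrays equal between arrays. Values below a floor of 8.98 (16.9 for probes) were raised to it before log2, which understates changes of dim miRNAs. The 456 miRNAs detected on all 4 arrays of a group were fitted with limma 3.58.1 (R 4.3.3), with no block. A miRNA was called where its p, adjusted after Benjamini-Hochberg, did not exceed 0.05 and its fold change reached 1.2. Single values were tested with exact permutation tests of the 8 arrays, two-sided. The fit was tested on simulated data. The number of arrays limits the precision.

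The members and lists were chosen with earlier results of these data known. Named were all 10 members, miR-378j and miR-422a, the 3 miRNAs with the nearest profiles to each detected member, and the listed host gene, muscle and cell type markers. Alternatives were the software's sum per miRNA, normexp (offset 50, on the median spot intensity, where the mean was planned), 4 other scalings, a floor lowered to 0.1 of its value, other filters, averaging of log2 values over probes, the deposited normalized values, another variance model, other thresholds and a paired t-test named in the study's statistics section, control RNAs kept, blocks by replicate number, array row and alike arrays, the mean of alike arrays, and leaving out each array. Leaving out DMSO replicates 2 and 3, testing every feature of the deposited log2 values, and values within array rows were added after the data had been seen. Same-numbered arrays did not deviate together (correlations of 0.18, 0.27, -0.42 and -0.39), so replicate numbers were not taken as pairs. Sequences and positions came from RefSeq, GRCh38.p14.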

Additional observations from a re-analysis of the deposited data

Results flagged for a closer look

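The log2 ratio of miR-378i to miR-378a-3p on DMSO replicate 4 was -1.01, away from the other DMSO arrays at -0.89 to -0.86. Its gap to the nearest of them, 0.857 of the whole range of the group, is above the critical value of Dixon's test for 4 samples. It was the only such value in 16 groups of 4 arrays examined, where chance gives 0.8.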

How the results depend on the processing

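The calls of both members were lost under a pair of scalings. Without scaling and with the labelling spike-ins, 0 members were called in place of 2, at 0.043 and 0.16 for miR-378a-3p and -0.092 and 0.024 for miR-378i. The 3 probes of miR-378a-3p were then at 0.061, 0.041 and 0.038 without scaling and at 0.18, 0.16 and 0.15 with the spike-ins, and the 2 probes of miR-378i at -0.078 and -0.097 without scaling and at 0.039 and 0.020 with the spike-ins. Calls over all miRNAs split into 234 higher and 4 lower without scaling, 295 and 7 with the spike-ins, 192 and 88 with the 75th percentile of all human miRNAs and 54 and 230 with normexp, against 164 and 158. Under every other alternative run, both members were called lower, including the deposited values and the row and alike-array blocks. Against 322 of 456 tested miRNAs, 156 of 456 were called with the mean of alike arrays as 1 sample and 152 of 456 with the paired t-test. Other settings tested more miRNAs. Without a detection filter 195 of 2549 were called, and 204 of 2031 when every feature of the deposited values was tested. These counts are not on the same total as 322. Without the detection filter, miR-378a-5p was called as well, at -0.95 (adjusted p = 0.0418, limma), with 1 array at the floor. The members called were then 3 of 10, beside the 195 of 2549 over all human miRNAs. With the replicate number as a block, 308 miRNAs were called, with -0.65 for miR-378a-3p (adjusted p = 0.00230, limma) and -0.79 for miR-378i (adjusted p = 0.00136, limma), and the block changed no call of a member. With alike arrays averaged, 2 samples against 2, the adjusted p-values were 0.0369 and 0.0295 (limma).

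When each array was left out, 296 to 326 miRNAs and 2 members were called, miR-378a-3p was at -0.72 to -0.61 and miR-378i at -0.86 to -0.73. The probes of miR-378a-3p were at -0.69 to -0.61, -0.71 to -0.61 and -0.73 to -0.61, those of miR-378i at -0.85 to -0.71 and -0.87 to -0.74, and the ratio at -0.17 to -0.12, called only without DMSO replicate 4. With normexp the ratio changed by -0.080 and with quantile normalization by -0.19, neither past the test. Signal over background limits what can be said of the 7 undetected members and of miR-378a-5p.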
